A study of Mus musculus with 16 samples.

Results

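The clock output transcription factors are regulators of transcription through which the circadian clock passes its rhythm on to other genes. They were taken by name as Gm129 (now Ciart), Dbp, Tef, Hlf, Nfil3, Bhlhe40 and Bhlhe41. These 7 genes had 9 of the 55681 probes on the array, and all 7 were among the 22763 features tested. A feature is a gene, or a transcript with no gene name, represented by its brightest probe.

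RNA was measured in hearts of C57BL/6 mice that had met an aggressor mouse, a procedure used to model posttraumatic stress disorder. The groups were control, T1R1, T2R1 and T3R1, with 4 arrays each and 1 heart per array. The names T1R1, T2R1 and T3R1 stand for 1, 2 and 3 days of stress, each followed by 1 day of rest. Stressed mice spent 6 hours of each day boxed behind mesh within the cage of an aggressor and met the aggressor from 3 to 5 times, each for up to 2 minutes or 10 attacks.

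Control mice sat in such boxes in a cage that held no aggressor, and the labels put them in the arm of 2 days. No other treatment, genotype, age or sex is named in the labels. The labels' general text speaks of 5 or 10 days, and the group names were followed here. The stress was given at a different hour on each day, and no source used here gives the hour at which hearts were taken.

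In the core loop of the clock, Clock and Arntl (Bmal1) switch on genes that carry an E-box, among them Per, Cry and Nr1d1, whose products then shut the loop down. Dbp, Tef and Hlf are related activators of the PAR bZIP family that bind the D-box, and Nfil3 is a repressor that binds the same site. Bhlhe40 and Bhlhe41 repress at E-boxes, and Gm129 represses Clock and Arntl. In heart, as in liver, these genes normally rise and fall over the day.

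Gm129 and Dbp were higher than control in T1R1 and in T2R1 and lower in T3R1 than in T2R1. Gm129 was 4.64-fold higher in T1R1 and 6.55-fold higher in T2R1 with 3 of 4 control arrays well above background, log2 changes of 2.21 and 2.71 that another background correction (normexp) put at 0.91 and 1.27. Dbp was 1.81-fold and 2.23-fold higher. Bhlhe41 was called 1.44-fold and 1.48-fold higher by 1 of its probes, but was not called by the other. Tef fell in T3R1 relative to both other stressed groups, and Hlf, Nfil3 and Bhlhe40 were not called with the main settings, though each was called under some of the others. Control and T3R1 were on 1 slide and T1R1 and T2R1 on the other. Every call of the 7 genes with the main settings crossed slides, so group and slide cannot be told apart there. Within a slide, T3R1 against control and T2R1 against T1R1 called 0 of the 7 (0.694% and 0% of features). Without control replicate 1, T3R1 against control called 4 of the 7 (29.4% of features).

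RefSeq promoter windows were available for 6 of the 7 genes in the build GRCm38.p6, and the 250 bases before each start were searched on both strands. The E-box CACGTG occurred 3 times before Gm129, at 116, 58 and 44 bases before the start given for its window. It occurred once in each of the 2 windows of Tef and once before Bhlhe41, 153 bases before its start, and not in the windows of Dbp, Hlf and Nfil3. Of all 32851 windows 6.02% held at least 1 copy and 0.0609% held 3 or more. The D-box forms TTATGTAA and TTACGTAA, found in 0.819% and 0.113% of windows, were in none of these genes' windows. The TAGGTCA motif, to which the Nr1d1 protein binds, was present once before Nfil3 and in 2.23% of all windows. No matches in these genes overlapped, and a match is a description of the letters and not a site of binding.

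The first stretch below is the window of Gm129, the gene with the largest change, and the second is that of Dbp, which also rose. Both are cut at the edge of the RefSeq gene, which in both lies before the start from which positions are counted, so the end of the printed stretch is not that start. The capitals mark the E-box.
Gm129, chr3:95882258-95882478, minus strand: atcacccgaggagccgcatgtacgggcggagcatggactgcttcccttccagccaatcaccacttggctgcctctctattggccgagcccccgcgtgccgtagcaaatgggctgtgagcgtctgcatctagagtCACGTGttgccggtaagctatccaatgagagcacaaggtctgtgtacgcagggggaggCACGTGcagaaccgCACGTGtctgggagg
Dbp, chr7:45704997-45705099, plus strand: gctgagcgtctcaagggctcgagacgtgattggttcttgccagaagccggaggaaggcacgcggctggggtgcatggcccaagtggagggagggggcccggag

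The 30 bases around the other matches are shown so that the neighbouring letters can be compared. Capitals mark the E-box, and in Nfil3 the reverse complement of TAGGTCA.
Tef, chr15:81802534-81802563, plus strand: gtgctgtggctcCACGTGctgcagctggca
Tef, chr15:81811264-81811293, plus strand: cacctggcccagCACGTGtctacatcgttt
Bhlhe41, chr6:145865556-145865585, minus strand: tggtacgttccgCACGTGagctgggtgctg
Nfil3, chr13:52981040-52981069, minus strand: tagcgcggcgctcggaacTGACCTActaac

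Levels are given as the log2 processed brightness of the probe minus the 75th percentile of its array, so 0 is the brightness of the 75th percentile and 1 unit is a doubling. A change is a difference of such levels with its standard error, and p-values are those of limma with Benjamini-Hochberg adjustment over all 22763 features. A change was called where the adjusted p was under 0.05. Levels of different probes are not compared, since brightness also depends on the probe.

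Of the 59305 non-control spots on an array, 46.5% to 67.1% were well above background. Control and T3R1 lay on 1 slide and T1R1 and T2R1 on the other, so every change between these pairs of groups also crossed slides, and group and slide cannot be told apart there. Control replicate 1 stood apart: its mean correlation was 0.970 with the other controls and 0.988 with T3R1, and its 75th percentile was 551 scanner units, against 258 to 273 in the other controls and 286 to 408 on the stressed arrays. Values without it are therefore given beside the results.

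Markers of heart muscle were present on every array, and the log2 sum of the levels of its 6 markers ranged from 11.47 to 12.63 in control, 12.14 to 12.30 in T1R1, 12.26 to 12.47 in T2R1 and 11.75 to 12.32 in T3R1. The sum of 4 of 6 thymus markers was 2.09 to 2.50 in control, 2.47 to 3.36 in T1R1, 2.77 to 2.98 in T2R1 and 2.07 to 2.66 in T3R1. The 6 markers of fat summed to 7.68 to 8.69 in control, 7.05 to 8.21 in T1R1, 7.18 to 7.91 in T2R1 and 7.42 to 8.14 in T3R1. The 3 neutrophil markers summed to 0.17 to 2.63 in control, 1.16 to 4.52 in T1R1, 3.00 to 5.37 in T2R1 and 0.65 to 3.35 in T3R1. Thymus and neutrophil means were thus higher, and fat means lower, on the slide where Gm129 and Dbp were higher. Means of skeletal muscle markers (3 of 5 tested) were also higher there. They were 7.72 in T1R1 and 7.82 in T2R1 against 7.47 in control and 7.52 in T3R1. Their ranges overlapped, at 6.92 to 8.15, 7.66 to 8.13, 7.11 to 7.74 and 7.17 to 7.70 in that order. Means of liver markers (4 of 6 tested) were 2.59 and 2.34 against 1.12 and 2.12. The liver ranges also overlapped, at 0.05 to 5.70, 1.04 to 4.17, -0.27 to 3.31 and -0.12 to 4.58 in the same order. The 4 fibroblast markers, at 7.58 to 7.87 in T1R1, 7.94 to 8.14 in T2R1 and 8.46 to 8.70 in T3R1, were highest in the group where Tef was lowest, with control at 7.89 to 8.38. Sums of the 3 tested macrophage markers were likewise higher in T3R1 (5.49 to 5.74) than in T1R1 (4.97 to 5.19) and T2R1 (5.04 to 5.27). Control stood at 4.88 to 5.85. Control replicate 1 was the highest control for fibroblast (8.38) and macrophage markers (5.85), with the other controls at 7.89 to 8.05 and 4.88 to 5.09. For heart muscle markers it was the lowest control, at 11.47, with the others at 12.32 to 12.63. The part of these tissues in the results below was not tested. In RNA from a whole heart, fewer cells of a type and less RNA per cell cannot be told apart.

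Of the 7 genes, 3 were called higher and 0 lower in T1R1 against control, where 7.74% of all features were called higher and 2.11% lower, 9.85% in all. In T2R1 3 were higher and 0 lower, against 14.8% of features higher and 3.58% lower, 18.4% in all. In T3R1 against control 0 of the 7 were called, where 0.694% of features were (0.505% higher and 0.189% lower), and at an unadjusted p under 0.05 the count was 5 of the 7 and 22.4% of features. The counts without control replicate 1 were 4, 4 and 4 of 7, where 17.8%, 24.4% and 29.4% of features were called.

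T2R1 against T1R1 gave 0 called genes of the 7 and 0 called features in all, with 0 of the 7 and 7.83% of features at an unadjusted p under 0.05. In T3R1 against T1R1 2 of the 7 fell and 0 rose, while 15.2% of features fell and 7.65% rose. In T3R1 against T2R1 3 fell and 0 rose, while 20.4% of features fell and 6.59% rose. The median change of the 7 genes was 0.40 in T1R1, 0.53 in T2R1 and 0.08 in T3R1, where that of all features was -0.01, 0.02 and -0.08. All stressed groups were compared with the same 4 control arrays, so these comparisons share them.

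Over the 4 groups together, the moderated F test of limma called 3 of the 7 genes, Dbp (adjusted p = 0.000273), Gm129 (0.000729) and Bhlhe41 (0.0227), where 26.9% of all features were called. With control replicate 1 left out it called 6 of the 7, where 48.8% of features were called.

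**Figure D1:**
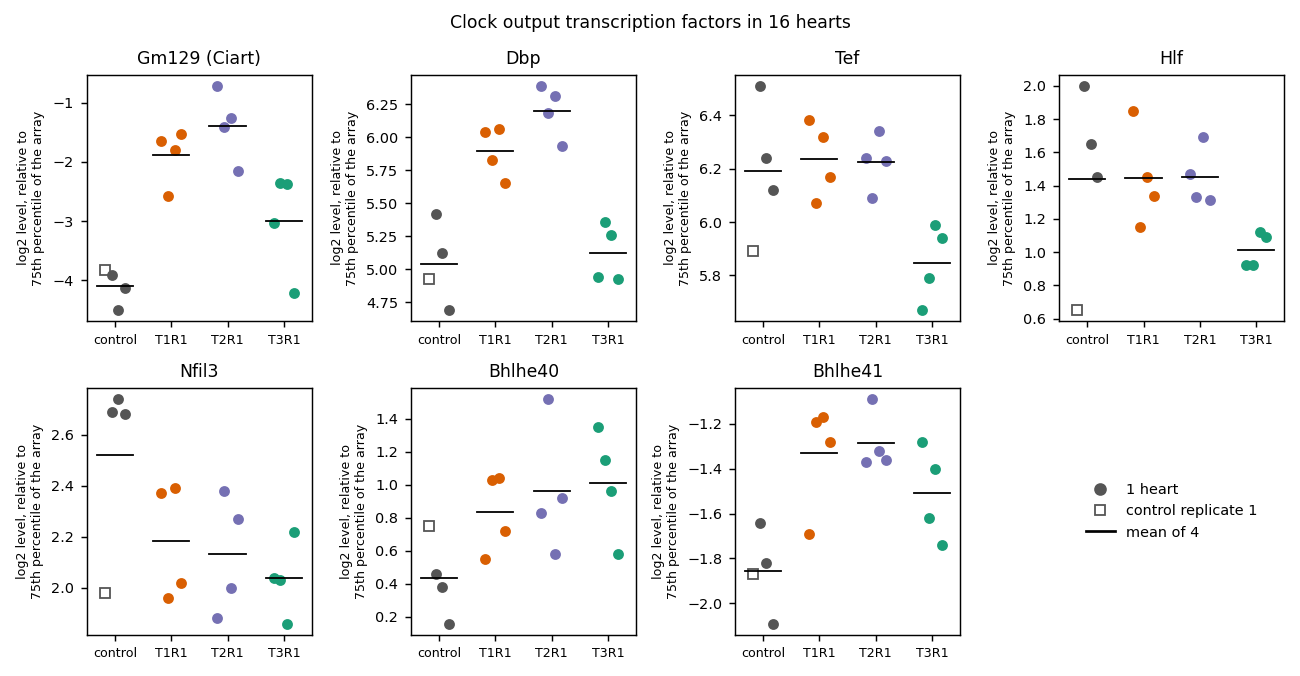
Levels of the 7 clock output genes on each of the 16 arrays, with 1 panel per gene and 1 column per group; the y axis is the log2 level relative to the 75th percentile of the array and has its own range in each panel. Circles are hearts, the open square is control replicate 1 and the line is the mean of 4; Gm129 and Dbp are highest in T1R1 and T2R1, and control replicate 1 is the lowest control for Tef, Hlf and Nfil3.

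Dbp, a D-box activator with a strong daily rhythm in many tissues, was read by a probe at 52965461 to 52965520 of chromosome 7 (mm9, the build of the array design). Its level was 4.93, 5.42, 5.12 and 4.69 in control, 6.04, 5.83, 6.06 and 5.65 in T1R1, 6.39, 6.18, 6.31 and 5.93 in T2R1, and 4.94, 5.36, 5.26 and 4.93 in T3R1. Every T1R1 and T2R1 heart lay above every control and every T3R1 heart, and the last groups overlapped. The change from control was 0.85 ± 0.16 in T1R1 (adjusted p = 0.00544), 1.16 ± 0.16 in T2R1 (adjusted p = 0.000508) and 0.08 ± 0.16 in T3R1 (adjusted p = 0.8).

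Relative to T1R1 and T2R1, Dbp fell by 0.77 (adjusted p = 0.00428) and by 1.08 (adjusted p = 0.000354) in T3R1. T2R1 and T1R1, which shared a slide, differed by 0.31 with a 95% interval from -0.04 to 0.65 (adjusted p = 0.652). The mean level thus rose from 5.04 ± 0.31 (SD, n = 4) in control through 5.12 ± 0.22 in T3R1 and 5.89 ± 0.20 in T1R1 to 6.20 ± 0.20 in T2R1, and only the step from T3R1 to T1R1 passed the test. The changes from control were 0.82, 1.12 and 0.05 with control replicate 1 left out. When each array was scaled to its median, the change in T1R1 was 0.42 (adjusted p = 0.0773), that in T2R1 0.77 (adjusted p = 0.00977) and that of T3R1 against T1R1 -0.37 (adjusted p = 0.128).

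The other probe of Dbp, at 52965322 to 52965381 of the same chromosome, gave 4.75, 5.30, 4.89 and 4.55 in control and 5.89, 5.67, 6.03 and 5.73 in T1R1. T2R1 stood at 6.26, 6.07, 6.11 and 5.74, and T3R1 at 4.97, 5.31, 5.26 and 4.98. With adjustment over all probes its changes from control were 0.96 ± 0.17 in T1R1 (adjusted p = 0.00994), 1.17 ± 0.17 in T2R1 (adjusted p = 0.00204) and 0.26 ± 0.17 in T3R1 (adjusted p = 0.607). Both probes of Dbp therefore put T1R1 and T2R1 above the other groups.

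Tef, a second PAR bZIP activator, was read at 81657221 to 81657280 of chromosome 15. Its level was 5.89, 6.51, 6.24 and 6.12 in control, 6.38, 6.07, 6.32 and 6.17 in T1R1, 6.24, 6.09, 6.34 and 6.23 in T2R1, and 5.67, 5.79, 5.99 and 5.94 in T3R1. The control hearts spanned the whole range of T1R1 and T2R1, and every T3R1 heart lay below every heart of those groups. Tef changed by 0.05 ± 0.12 in T1R1 (adjusted p = 0.848) and by 0.03 ± 0.12 in T2R1 (adjusted p = 0.894).

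In T3R1, Tef was 1.31-fold lower than in T1R1 (-0.39, adjusted p = 0.0363) and 1.30-fold lower than in T2R1 (-0.37, adjusted p = 0.0375). Against control, on the same slide, the value was -0.34 ± 0.12 (adjusted p = 0.133), and it was -0.44 (adjusted p = 0.0121) without control replicate 1, which at 5.89 was the lowest control. The T3R1 calls were near the threshold. That against T1R1 was lost without T1R1 replicate 1, 3 or 4 or T3R1 replicate 1 or 2 (adjusted p from 0.0574 to 0.111), and that against T2R1 without T2R1 replicate 1, 3 or 4 or T3R1 replicate 1 or 2 (adjusted p from 0.0751 to 0.115). Both were also lost with no filter on dim probes (adjusted p = 0.0630 and 0.0668), and the second with quantile normalization (-0.31, adjusted p = 0.0565).

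With each array scaled to its median, Tef was -0.39 in T1R1 (adjusted p = 0.0246) and -0.35 in T2R1 (adjusted p = 0.0413) against control, and 0.02 and -0.02 in T3R1 against T1R1 and T2R1. That scaling also moved the median of all features to -0.44 in T1R1 and -0.37 in T2R1, so Tef stayed close to the typical feature there. Whether Tef was called lower in T1R1 and T2R1 or in T3R1 thus depended on the scaling.

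Hlf, the third PAR bZIP activator, was read at 90200696 to 90200755 of chromosome 11. Its level was 0.65, 2.00, 1.65 and 1.45 in control, 1.85, 1.15, 1.45 and 1.34 in T1R1, 1.47, 1.33, 1.69 and 1.31 in T2R1, and 0.92, 0.92, 1.12 and 1.09 in T3R1. Control replicate 1, at 0.65, was the lowest of all 16 hearts, and the T3R1 hearts lay below all those of T1R1 and T2R1. Hlf changed by 0.01 ± 0.23 in both T1R1 and T2R1 (adjusted p = 0.985 and 0.977) and by -0.43 ± 0.23 in T3R1 (adjusted p = 0.279). Against T1R1 and T2R1, Hlf in T3R1 stood at -0.43 (adjusted p = 0.181) and -0.44 (adjusted p = 0.165). With control replicate 1 left out the value in T3R1 was -0.69 (adjusted p = 0.00804), and those in T1R1 and T2R1 were both -0.25. With array weights Hlf was called in T3R1 against control (-0.62, adjusted p = 0.00748) and against T2R1 (-0.45, adjusted p = 0.0266).

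Nfil3, the repressor at the D-box, was read at 53062578 to 53062637 of chromosome 13. Its level was 1.98, 2.69, 2.74 and 2.68 in control, 2.37, 1.96, 2.39 and 2.02 in T1R1, 1.88, 2.38, 2.00 and 2.27 in T2R1, and 2.04, 2.03, 1.86 and 2.22 in T3R1. Control replicates 2, 3 and 4 lay above all 12 stressed hearts, and control replicate 1 lay among them. The change was -0.34 ± 0.17 in T1R1 (adjusted p = 0.233), -0.39 ± 0.17 in T2R1 (adjusted p = 0.136) and -0.48 ± 0.17 in T3R1 (adjusted p = 0.129).

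The call on Nfil3 depended on control replicate 1 and on the settings. Without that array Nfil3 was lower by 0.52 in T1R1 (-0.52, adjusted p = 0.0253), by 0.57 in T2R1 (-0.57, adjusted p = 0.0125) and by 0.66 in T3R1 (-0.66, adjusted p = 0.00393). With all arrays scaled to their medians Nfil3 was also called, at -0.77 in T1R1 (adjusted p = 0.00798) and -0.78 in T2R1 (adjusted p = 0.0106), but not in T3R1 (-0.51, adjusted p = 0.211). Array weights, which let poorly matching arrays count less, gave -0.51, -0.56 and -0.65 (adjusted p = 0.0237, 0.00231 and 0.00192). Between stressed groups the values ran from -0.14 to -0.05, and none was called.

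Gm129 (Ciart), the repressor of Clock and Arntl, was read at 95682433 to 95682492 of chromosome 3 by the only probe that carries its name. Its level was -3.83, -3.91, -4.51 and -4.13 in control, -1.64, -2.58, -1.79 and -1.52 in T1R1, -0.71, -1.41, -1.26 and -2.16 in T2R1, and -3.04, -2.35, -2.37 and -4.21 in T3R1. All T1R1 and T2R1 hearts lay above all controls, and T3R1 spread from the controls' range up to that of T1R1. The probe was well above background on 15 of 16 arrays, all but control replicate 3.

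Gm129 rose by 2.21 ± 0.39 in T1R1 (adjusted p = 0.00354) and by 2.71 ± 0.39 in T2R1 (adjusted p = 0.00055). The control mean of -4.10 ± 0.30 (SD, n = 4) was followed by -2.99 ± 0.87 in T3R1, -1.88 ± 0.48 in T1R1 and -1.38 ± 0.60 in T2R1. Neighbours in that order did not pass the test, with an adjusted p of 0.128 for T3R1 against control, 0.0543 for T3R1 against T1R1 and 0.746 for T2R1 against T1R1. T3R1 was 3.05-fold lower than T2R1 (-1.61, adjusted p = 0.00784), with no overlap between the hearts.

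The size of the Gm129 change depended on the background correction, since the control signal was dim. With normexp and an offset of 50, which shrinks changes of dim probes, it was 0.91 in T1R1 (adjusted p = 0.029), 1.27 in T2R1 (adjusted p = 0.00324) and 0.28 in T3R1 (adjusted p = 0.48). In the authors' deposited table the differences of group means were 1.04, 1.46 and 0.47. The values of that table ranked the spots of each array as their mean intensity did (Spearman correlation of 1). Without control replicate 1 the changes were 2.30, 2.80 and 1.19 (adjusted p = 0.00719, 0.00147 and 0.0555). T3R1 against T1R1 became a call without T1R1 replicate 2 or T3R1 replicate 2 or 3 (-1.35, -1.33 and -1.32, with adjusted p = 0.0298, 0.0405 and 0.0402).

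Bhlhe40, an E-box repressor also known to answer to stress signals, was read at 108616309 to 108616368 of chromosome 6. Its level was 0.75, 0.46, 0.38 and 0.16 in control, 0.55, 1.03, 1.04 and 0.72 in T1R1, 0.83, 1.52, 0.58 and 0.92 in T2R1, and 1.35, 1.15, 0.96 and 0.58 in T3R1. The highest control, replicate 1, lay within the range of every stressed group. The change was 0.40 ± 0.21 in T1R1 (adjusted p = 0.247), 0.53 ± 0.21 in T2R1 (adjusted p = 0.0964) and 0.57 ± 0.21 in T3R1 (adjusted p = 0.134). These values became, without control replicate 1, 0.50 (adjusted p = 0.119), 0.63 (adjusted p = 0.0507) and 0.67 (adjusted p = 0.0331), so that Bhlhe40 was then called in T3R1. With array weights it was called in T2R1 (0.61, adjusted p = 0.0164) and T3R1 (0.69, adjusted p = 0.015).

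Bhlhe41, its closest relative, lies on the same chromosome, and its brighter probe is at 145811275 to 145811334. That probe gave -1.87, -1.64, -1.82 and -2.09 in control, -1.69, -1.19, -1.17 and -1.28 in T1R1, -1.37, -1.09, -1.32 and -1.36 in T2R1, and -1.28, -1.62, -1.40 and -1.74 in T3R1. T2R1 lay above all controls, while T1R1 replicate 1 and T3R1 replicate 4 fell within the controls' range. The change was 0.52 ± 0.14 in T1R1 (adjusted p = 0.0285), 0.57 ± 0.14 in T2R1 (adjusted p = 0.0113) and 0.35 ± 0.14 in T3R1 (adjusted p = 0.165).

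The other probe of Bhlhe41, at 145812652 to 145812711, ranged from -2.63 to -1.74 in control, from -2.30 to -2.0 in T1R1, from -2.36 to -1.83 in T2R1 and from -2.34 to -1.93 in T3R1. All stressed hearts lay within the controls' range on that probe. Its changes from control were 0.13, 0.27 and 0.13 with a standard error of 0.18 (adjusted p over all probes = 0.692, 0.471 and 0.874). In that adjustment the brighter probe had an adjusted p of 0.0684, 0.0324 and 0.381. Both probes of Bhlhe41 thus changed upward, less so on this probe, and the difference between them was not tested. On the brighter probe the T1R1 call was lost in 13 of 23 alternatives, among them leaving out control replicate 3 or 4 or T1R1 replicate 2, 3 or 4 (adjusted p from 0.0521 to 0.0884). In the authors' deposited table the differences were 0.18 (adjusted p = 0.294) and 0.23 (adjusted p = 0.128) in T1R1 and T2R1. With normexp T1R1 was 0.29 (adjusted p = 0.106), with quantile normalization T1R1 and T2R1 were 0.35 and 0.38 (adjusted p = 0.171 and 0.0978), and with median scaling 0.09 and 0.18 (adjusted p = 0.698 and 0.397).

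**Figure D2:**
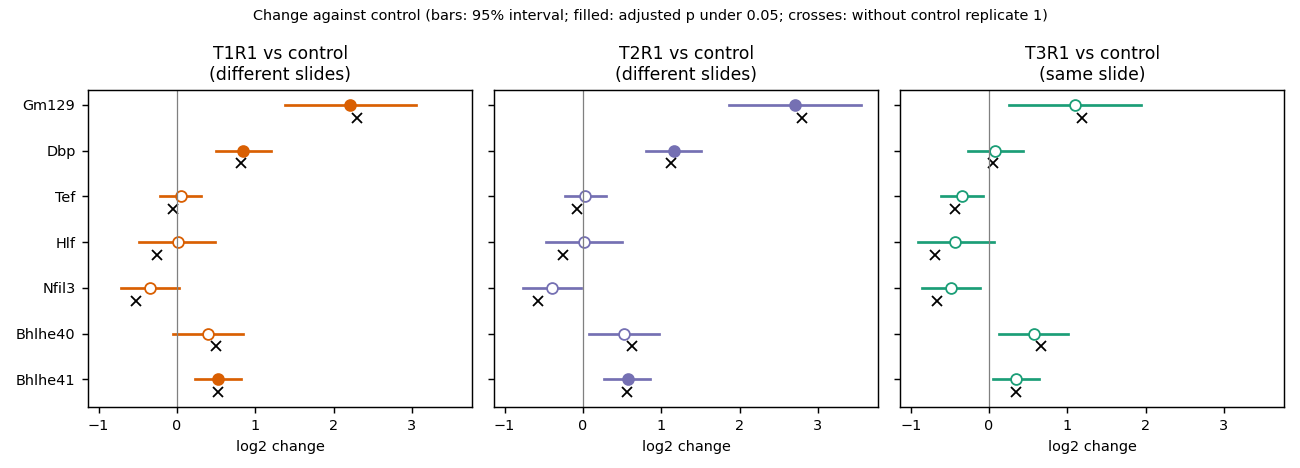
Change of each gene against control in 3 panels, for T1R1, T2R1 and T3R1; the x axis is the log2 change, circles are the fitted changes with 95% intervals as bars, filled circles have an adjusted p under 0.05 and crosses are the values without control replicate 1. Gm129 and Dbp lie farthest to the right in T1R1 and T2R1 (2.21 and 0.85, 2.71 and 1.16), Nfil3 lies left of 0 in all panels, and its crosses lie farther left.

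**Figure D3:**
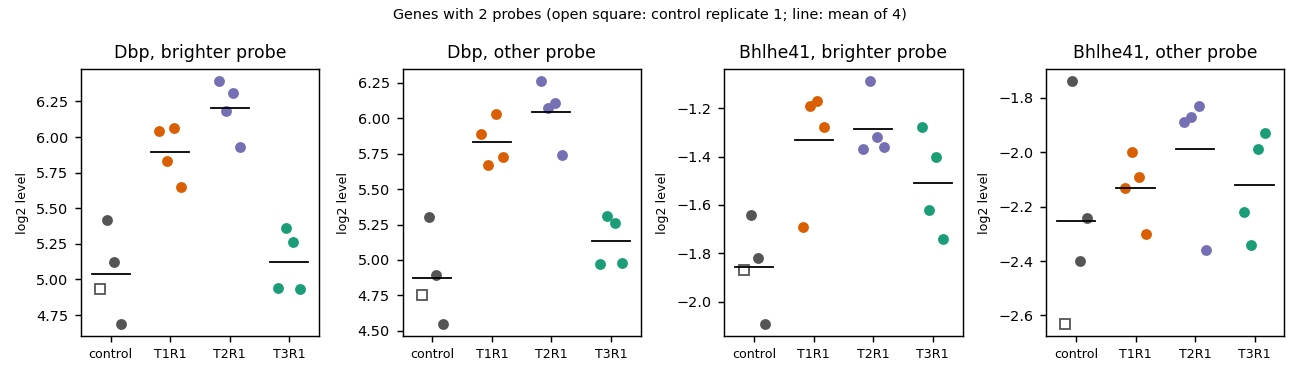
Log2 levels on each array for both probes of Dbp and both probes of Bhlhe41, with 1 column per group, circles for hearts, the open square for control replicate 1 and a line for the mean of 4. Both Dbp probes show T1R1 and T2R1 above control and T3R1, while the other probe of Bhlhe41 has stressed hearts within the controls' range of -2.63 to -1.74.

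Whether related genes changed by different amounts was tested on differences taken within each array, which do not depend on how the arrays were scaled. Exact two-sided permutation tests of 4 hearts against 4 cannot give a p under 0.0286, and 15 were run, so that p was adjusted over them. Dbp exceeded Tef by 0.81 more in T1R1 than in control and by 1.13 more in T2R1, with no overlap of hearts (exact p = 0.0286, adjusted p = 0.0858 for each). The figures for Dbp over Nfil3 were 1.19 and 1.55 (exact p = 0.0286, adjusted p = 0.0858 for each). Dbp over Hlf gave 0.84 in T1R1 (exact permutation adjusted p = 0.122) and 1.15 in T2R1 (exact permutation adjusted p = 0.0858). None of the 15 passed the adjusted threshold, and 5 of them reached the smallest p this design allows. A test at that p could pass after adjustment only if more of the 15 had also reached it.

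The differences in the remaining tests were smaller than those. Tef minus Hlf differed from control by 0.04, 0.02 and 0.08 in T1R1, T2R1 and T3R1 (exact permutation adjusted p = 0.971, 0.971 and 0.892). Bhlhe40 minus Bhlhe41 differed by -0.12, -0.04 and 0.22 (exact permutation adjusted p = 0.623, 0.971 and 0.256). In T3R1 the 3 Dbp differences, 0.42 to Tef, 0.51 to Hlf and 0.57 to Nfil3, had adjusted p from 0.122 to 0.238 by the exact permutation test.

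Across the 16 arrays the levels of some pairs ran together. These correlations are a description, because arrays of a pair share their scaling, slide and group. Tef and Hlf had r = 0.91 over all arrays, 0.92 on the slide of control and T3R1, 0.88 on that of T1R1 and T2R1, and 0.90 with the group means removed. Bhlhe40 and Bhlhe41 had r = 0.75, 0.83, 0.76 and 0.70 in the same order. Gm129 and Dbp had r = 0.87 over all arrays but 0.45 and 0.69 within the slides.

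Dbp and Arntl, the activator of the clock's core loop, ran in opposite directions, with r = -0.92 over all arrays, -0.76 and -0.58 within the slides and -0.60 with group means removed. Gm129 and Arntl had r = -0.82 over all arrays and -0.67 on the slide of control and T3R1, but 0.01 on that of T1R1 and T2R1. Tef and Bhlhe40 also ran against each other, at -0.49 over all arrays and -0.76 and -0.70 within the slides. Hlf and Nfil3 had r = 0.59 over all arrays, with 0.86 on the slide of control and T3R1 and 0.22 on the other.

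**Figure D4:**
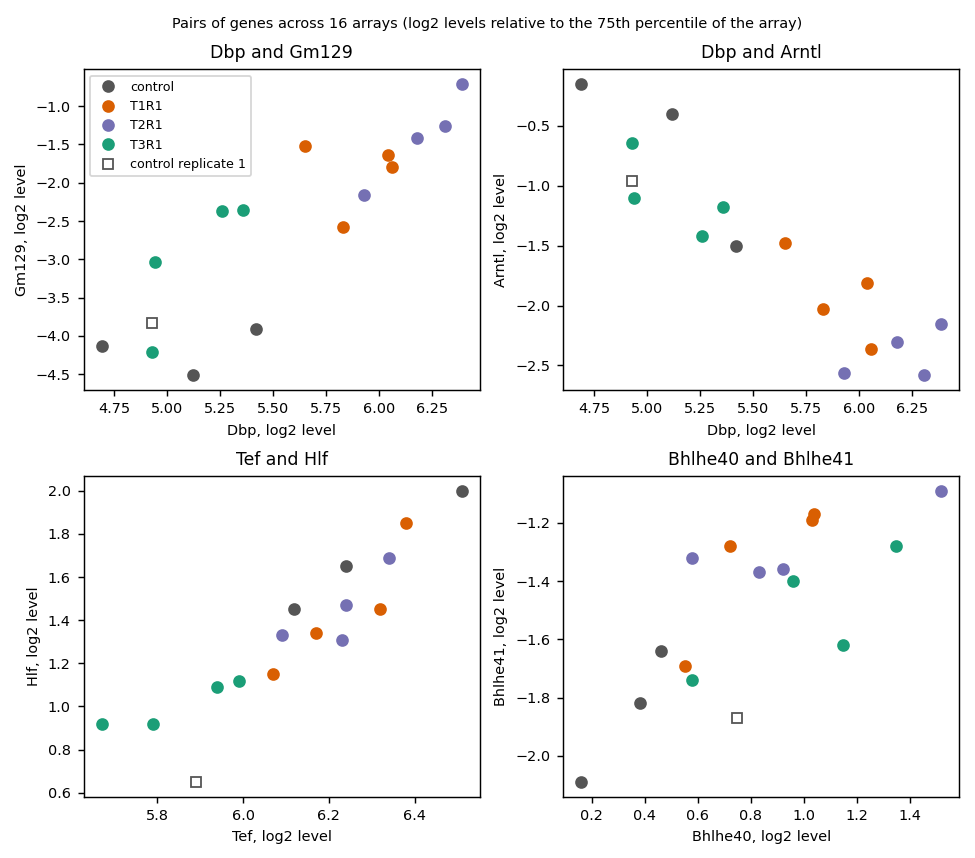
Log2 levels of 4 pairs of genes on the 16 arrays, 1 point per heart coloured by group, with the open square for control replicate 1. Dbp and Gm129 rise together and Dbp and Arntl run oppositely. Tef and Hlf (r = 0.91) run together with the T3R1 hearts below those of T1R1 and T2R1, and Bhlhe40 and Bhlhe41 (r = 0.75) run together with the stressed groups overlapping.

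For each gene the features with a gene name were ranked by correlation over the 16 arrays, among 16988 genes. Dbp was nearest to 1700067K01Rik (r = 0.931) and Gna15 (0.924), and Arntl was the farthest of all genes from it (-0.916). Gm129 was nearest to Dbp (0.871) and then Ebf4 (0.853), with Smad3 farthest (-0.921). On the slide of control and T3R1 and on that of T1R1 and T2R1, Dbp and Gna15 had r = 0.465 and 0.709, and Gm129 and Ebf4 0.851 and 0.273.

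Tef was nearest to AW549542 (r = 0.943, with 0.969 and 0.817 within the slides) and 9330151L19Rik (0.935), with LOC434624 at -0.946. Hlf was nearest to Coa8 (0.943) and Gm10762 (0.936), with Snx10 at -0.954. Nfil3 was nearest to Clk2 (0.941, with 0.980 and 0.857 within the slides), with Lect2 at -0.863 (-0.983 and -0.559). For Bhlhe40 these were Kctd11 (0.922) and Plaur (0.918), with Dcp1b at -0.934. Bhlhe41 was nearest to the heat shock gene Hspa1l (0.890) and to Gm10537 (0.862), with Xpa at -0.912. With so many genes ranked, high values arise by selection, and these names describe the arrays only.

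The core loop that drives these outputs was covered by a list of 17 genes, of which 16 were tested. In T1R1 1 of 16 rose and 1 fell, in T2R1 2 rose and 4 fell, and in T3R1 0 rose and 1 fell, relative to control, where 9.85%, 18.4% and 0.694% of all features were called. The list's median change was -0.04, -0.07 and -0.24, where that of all features was -0.01, 0.02 and -0.08. The counts without control replicate 1 were 1 up and 5 down, 1 up and 6 down, and 0 up and 6 down, where 17.8%, 24.4% and 29.4% of features were called.

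Arntl, the activator partner of Clock, fell by 1.17 in T1R1 (-1.17, adjusted p = 0.0139) and by 1.65 in T2R1 (-1.65, adjusted p = 0.00104), and stood at -0.33 in T3R1 (adjusted p = 0.474). Its level was -0.96, -1.50, -0.40 and -0.15 in control, -1.81, -2.03, -2.36 and -1.48 in T1R1, -2.15, -2.30, -2.58 and -2.56 in T2R1, and -1.10, -1.18, -1.42 and -0.64 in T3R1. All T2R1 hearts lay below all controls, and T1R1 replicate 4 was just above the lowest control. Arntl was higher in T3R1 than in T1R1 by 0.84 (adjusted p = 0.0357) and than in T2R1 by 1.31 (adjusted p = 0.00259). The call against T1R1 was lost with normexp (0.52, adjusted p = 0.055).

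Nr1d1, the repressor of Arntl and itself an E-box gene, rose by 1.27 in T1R1 (adjusted p = 0.0166) and by 1.16 in T2R1 (adjusted p = 0.0153), with 0.67 in T3R1 (adjusted p = 0.207). Control stood at -0.64, 0.18, 0.17 and -0.06, and the 8 arrays of T1R1 and T2R1 at 0.82 to 1.57, with no overlap. T3R1 spread from -0.37 to 1.15. Under median scaling the T1R1 and T2R1 values of Nr1d1 were 0.83 (adjusted p = 0.0526) and 0.78 (adjusted p = 0.0733).

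Of the Per and Cry repressors, Per1 rose by 0.76 in T2R1 (adjusted p = 0.0249), which became 0.68 (adjusted p = 0.0508) without control replicate 1 and 0.38 (adjusted p = 0.183) with median scaling. Cry1 fell in T2R1 (-0.69, adjusted p = 0.00675) and T3R1 (-0.79, adjusted p = 0.0346), though with normexp these were -0.25 and -0.41 (adjusted p = 0.196 and 0.0959). With quantile and median scaling the T3R1 value of Cry1 had an adjusted p of 0.0684 and 0.0941. Without control replicate 1 Cry1 was also called in T1R1 (-0.59, adjusted p = 0.0192), as it was with median scaling (-0.92, adjusted p = 0.00466). Per2 and Per3 stood at 0.49 and -0.06 in T1R1, -0.15 and 0.13 in T2R1 and -0.16 and -0.23 in T3R1 and were not called. The level of Per2 in T2R1 was -3.06 on replicate 3 and -0.87 to -0.72 on the other arrays, with control at -1.57 to -0.67. Clock itself was at -0.14, -0.07 and 0.04.

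T3R1 gave 1 rise and 2 falls in this list against T1R1, and 1 of each against T2R1. Against T1R1 Cry2 and Timeless fell (-0.47, adjusted p = 0.0223, and -0.50, adjusted p = 0.0134), but with median scaling they were at -0.14 and -0.09. Per1 fell in T3R1 against T2R1 (-0.83, adjusted p = 0.0122), and with median scaling it was at -0.47 (adjusted p = 0.115).

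Genes known as targets of proteins that bind the D-box, such as Dbp, Tef, Hlf and Nfil3, made a list of 16, of which 13 were tested. The list repeats Per1, Per2, Per3, Cry1, Nr1d1 and Rora from the core loop. In T1R1 1 of 13 rose and 1 fell, in T2R1 3 rose and 1 fell, and in T3R1 0 rose and 1 fell, beside 9.85%, 18.4% and 0.694% of all features. Its median change was -0.06, -0.15 and -0.18, and that of all features -0.01, 0.02 and -0.08. Without control replicate 1 the counts were 1 up and 4 down, 1 up and 2 down, and 0 up and 5 down, beside 17.8%, 24.4% and 29.4% of features.

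Outside the core loop, the called D-box targets were few. Alas1, the first enzyme of heme synthesis, fell in T1R1 (-0.59, adjusted p = 0.0398). Nr1i3 (the receptor CAR) rose in T2R1 (0.75, adjusted p = 0.0397) and was lower in T3R1 than in T2R1 (-0.81, adjusted p = 0.0207). With normexp, quantile normalization, median scaling or the authors' deposited table the T2R1 value of Nr1i3 was 0.21, 0.32, 0.36 or 0.11, and none was called, nor was 0.74 without control replicate 1 (adjusted p = 0.0561). Abcb1a, a drug export pump, fell in T3R1 against T1R1 (-0.59, adjusted p = 0.0251), and with median scaling it stood at -0.18 (adjusted p = 0.401). Ppara, a regulator of fat oxidation, stood at -0.39, -0.19 and -0.68 in T1R1, T2R1 and T3R1 (adjusted p = 0.26, 0.595 and 0.0957). It was called without control replicate 1 in T1R1 (-0.61, adjusted p = 0.0317) and T3R1 (-0.90, adjusted p = 0.00256), and with median scaling in T1R1 (-0.83, adjusted p = 0.00913) and T2R1 (-0.57, adjusted p = 0.045). Alas1 and Abcb1a were likewise called in T3R1 without that array (-0.47, adjusted p = 0.0158, and -0.85, adjusted p = 0.00168).

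Of 17 other genes known to follow the clock, all tested, 0 rose and 1 fell in T1R1, 0 rose and 1 fell in T2R1, and 0 were called in T3R1 against control (9.85%, 18.4% and 0.694% of all features), with 7 at an unadjusted p under 0.05. The called gene was Lonrf3, a ring finger protein, which fell by 1.07 in T1R1 (-1.07, adjusted p = 0.0102) and by 1.38 in T2R1 (-1.38, adjusted p = 0.00124), with -0.63 in T3R1 (adjusted p = 0.136), or -0.78 (adjusted p = 0.0242) without control replicate 1. Its control levels ran from -0.84 to -0.02 and its T2R1 levels from -2.12 to -1.45, with no overlap. Klf15, a heart regulator of metabolism and rhythm, stood at -0.77, -0.77 and -0.88 (adjusted p = 0.0888, 0.0664 and 0.0957), and without control replicate 1 at -1.07, -1.06 and -1.17 (adjusted p = 0.00918, 0.00565 and 0.00207). Median scaling put Klf15 at -1.21 in T1R1 (adjusted p = 0.00511) and -1.15 in T2R1 (adjusted p = 0.00741). Between stressed groups Lonrf3 rose in T3R1 against T2R1 (0.75, adjusted p = 0.0271), which normexp put at 0.47 (adjusted p = 0.0569), and no other gene of the list was called there. Without control replicate 1 the list had 1 up and 6 down in T1R1, 2 up and 5 down in T2R1 and 1 up and 7 down in T3R1 (17.8%, 24.4% and 29.4% of features).

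With median scaling every list gene called against control in T1R1 and T2R1 was lower. The core loop then had 0 up and 10 down in T1R1, and 0 up and 9 down in T2R1. The targets of the D-box had 0 up with 8 and 6 down, and the other clock-controlled genes 0 up with 10 and 8 down. Of all 22763 features, 10127 were then called lower and 622 higher in T1R1, 47.2% in all. In T2R1 7768 were called lower and 1392 higher, 40.2% in all. The median of all features was also lower, at -0.44 and -0.37.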

How the data were processed

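The 7 genes and the gene lists were chosen with earlier results of these data known. Per the file headers, processed intensity values were made by Feature Extraction 10.7.3.1, with background subtracted within each array; mean intensity and background intensity were also deposited, and flags of 0 or 1 mark spots. The authors deposited a table of log2 values with equal medians; the sources used here do not say how it was made.

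Outlier-flagged spots were left out, log2 values were set relative to the 75th percentile of the array, spots were averaged per probe, and a probe was kept (31390 were) if some group had it well above background on each of its 4 arrays. The brightest probe stood for a gene. Names were updated by accession for 26762 probes and by symbol for 3819, and 25100 kept the file's name. limma 3.58.1, run in R 4.3.3, fitted one model over 4 groups (12 residual degrees of freedom), with p-values adjusted by Benjamini-Hochberg over all features at 0.05, and was tested on simulated data. P-values measure the spread between hearts.

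All 7 genes were described, every list gene was counted, and list genes were named where called or needed beside a result. The 2 nearest genes and the farthest 1 were named by correlation; some genes that this rule names are not reported here. Replicate numbers did not pair hearts: for 5 of 16 arrays the best match in another group had the same number, so the model had no pairing and a replicate block was an alternative. Alternatives covered background, scaling, filter, probe choice, model, block, threshold and left-out arrays; showing values without control replicate 1 beside the results, and some checks of the lists, were chosen after the data were seen.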

Additional observations from a re-analysis of the deposited data

Results flagged for a closer look

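Nfil3 on control replicate 1 stood at 1.98, far from the other controls, the nearest of which was at 2.68; the gap was 0.924 of the group's range. This was the 1 such array among 28 sets of 4 arrays looked at, and chance alone marks about 1 set in 20.

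The response of some genes differed between stressed groups, by the contrast of those groups in limma. Dbp was lower in T3R1 than in T1R1 (-0.77, adjusted p = 0.00428) and than in T2R1 (-1.08, adjusted p = 0.000354). Tef was lower in T3R1 than in T1R1 (-0.39, adjusted p = 0.0363) and than in T2R1 (-0.37, adjusted p = 0.0375), and Gm129 was lower in T3R1 than in T2R1 (-1.61, adjusted p = 0.00784). All of these cross slides, so group and slide cannot be told apart.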

How the results depend on the processing

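Over all alternatives, results of single genes and of gene pairs stayed the same 1187 times. They gained a call 32 times, lost one 36 times and turned 4 times. For single genes, the same means the same direction and side of the threshold. A change of sign counted as a turn if either setting called the gene, or if both changes exceeded their standard errors. Any other change of sign counted as the same. For pairs only the direction was checked, so a pair could not gain or lose a call. The turns came with each array scaled to its median. Tef was then -0.39 in T1R1 and -0.35 in T2R1 against control, from 0.05 ± 0.12 and 0.03 ± 0.12. In T3R1 against T1R1 Tef was 0.02, from -0.39, and Bhlhe41 was 0.23, from -0.18. That scaling put the median of all features at -0.44 in T1R1 (-0.01 before) and -0.37 in T2R1 (0.02 before). Features called in T1R1 against control were 9.85% and became 47.2%. Counts of the 7 genes moved as follows, and the cause was not tested. With array weights 5 were called in T2R1 and 6 in T3R1 against control and 7 over the 4 groups; the shares of features were 38.7%, 34.5% and 59.4%. Without both control replicate 1 and T1R1 replicate 1 these were 5, 4 and 6, beside 25.9%, 31% and 51.1% of features. In T3R1 against T1R1, 0 were called with median scaling (38.6% of features), 1 with no filter on dim probes (14%) and 1 at an adjusted p under 0.01 (10.8%). Leaving out 1 array gave 2 to 4 calls in T1R1 against control, where 5.89% to 17.8% of features were called. Against control 3 to 4 were called in T2R1 (12.4% to 24.4% of features) and 0 to 4 in T3R1 (0.0132% to 29.4%). T2R1 against T1R1 gave 0 (0% of features). T3R1 gave 1 to 3 against T1R1 (15.4% to 23.5%) and 2 to 3 against T2R1 (18.5% to 25.6%). Over the 4 groups 2 to 6 were called, where 19.3% to 48.8% of features were. The 4 in T3R1 and the 6 came without control replicate 1. With the replicate block, 3, 3 and 0 were called against control, beside 9.95%, 18% and 0.189% of features. In T3R1 against T2R1 that setting called 2, beside 26.2% of features, and Tef was lost (-0.37, adjusted p = 0.0513). The block changed no other call of the 7. A probe filter of well above background on all 16 arrays leaves out Gm129. The number of arrays limits the precision, and Gm129 in control lies near background.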
